A study of Rattus norvegicus with 63 samples.

Results

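Rat kidney transcripts measured 30 h after methylprednisolone, a glucocorticoid drug, were compared with those at 18 h. The members of the comparison were chosen by title: all arrays of the main array type titled 18 h (3) and 30 h (3), which makes 6 of its 53 arrays and of the 63 arrays of the series. All probe sets of that array entered, where a probe set is a group of short probes that together measure 1 transcript: 15866 without control probe sets, of which 9520 were bright enough to be tested. The question was which transcripts were lost or regained over the 12 h between the late times. Each sample is total RNA from whole kidney. Both groups were injected and differ in the time from injection to sacrifice. Untreated kidneys exist at 0 h (4 libraries), and the labels used here give no strain, sex, age, dose, pooling or hour of day. Elapsed time after the injection and hour of day therefore cannot be told apart between 18 h and 30 h. Libraries are named here by time and replicate (18h-1 to 30h-3). No source says that they come from separate animals, and p-values thus measure the spread between samples only, which may be technical. This spread was taken between libraries of the same time and pooled over all 17 times. In whole tissue, fewer cells of a type and less RNA per cell cannot be told apart.

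Glucocorticoids enter cells and bind the glucocorticoid receptor, a transcription factor that moves to the nucleus and activates or represses genes. In kidney they raise genes of sodium handling, ammonia formation and amino acid breakdown. The circadian clock is a feedback loop in which Bmal1 and Clock activate genes that include their own repressors, the Per and Cry proteins and the nuclear receptors Nr1d1 and Nr1d2, and the output factors Dbp, Tef and Hlf. The methionine cycle moves methyl groups: Gnmt consumes S-adenosylmethionine, Ahcy splits the S-adenosylhomocysteine that is left, and Bhmt returns homocysteine to methionine.

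At 30 h, 13 probe sets were lower and 5 higher than at 18 h, which is 0.137% and 0.0525% of the 9520 tested (limma, Benjamini-Hochberg adjusted p under 0.05). The 13 lower probe sets include 11 genes with 1 symbol: Sult1a1, Gnmt, Bhmt, Adh1c, Ddit4l, Wsb1, Sgk1, Bmal1, Ndrg1, Tmem37 and Glud1. The 5 higher include 2: Nr1d2 and Dbp. The median difference over all tested probe sets was 0.002 on the log2 scale and 30 probe sets lay at least 1 log2 unit lower and 32 at least 1 higher, so large differences were about as frequent in either direction. At an unadjusted p under 0.05, 259 were lower and 279 higher. The 3 libraries of 30 h lay wholly below those of 18 h in 459 probe sets (4.82%) and wholly above in 506 (5.32%). The counts rest on single libraries: the number higher was 0 without 18h-2 or without 30h-3, 1 without 18h-3 or without 30h-1, and 9 without 18h-1. For the lower probe sets the count was 4 without 18h-3, 5 without 30h-1, 6 without 18h-1 or 18h-2, and 8 without 30h-2.

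**Figure D1:**
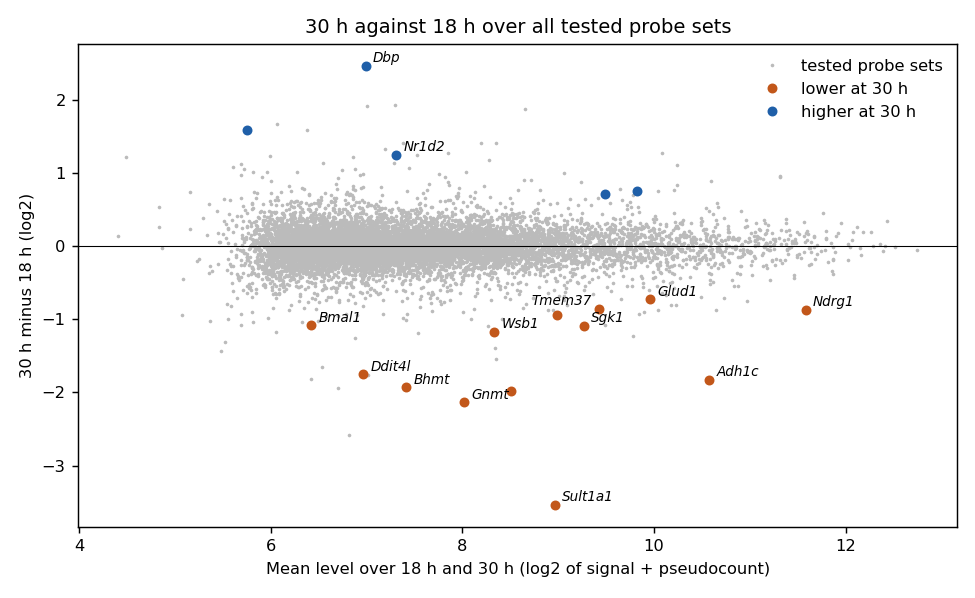
Each point is 1 of the 9520 tested probe sets, with its mean level over both times on the x axis (log2 of signal plus pseudocount) and the 30 h minus 18 h difference on the y axis (log2). Orange points (13) were lower and blue points (5) higher at an adjusted p under 0.05; Sult1a1 at -3.54 and Dbp at 2.46 lie farthest from 0, and points without a name have no single gene symbol.

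Values below are signals, which are array intensities scaled per array by the authors. Differences are on the scale log2(signal + 7.63), which understates changes of dim probe sets. They are given with their standard error (n = 3 libraries a time) and the limma adjusted p over all tested probe sets. Both rest on the spread pooled over all 17 times. Sult1a1 (probe set 1370019_at), which sulfonates phenols, drugs and thyroid hormones, had the largest difference. Its signal was 1554, 1536 and 2034 at 18 h and 163, 156 and 106 at 30 h. The times were far apart, and the 30 h libraries overlapped the untreated ones, which ran from 132 to 181. The difference was -3.54 ± 0.36, an 11.6-fold decrease (adjusted p = 3.09e-08), and the call held in all 17 alternatives that were run. Over the whole series the mean signal of Sult1a1 rose from 150 at 0 h through 569 at 2 h to its highest value of 2358 at 5.5 h, stood at 1543 at 12 h and 1694 at 18 h, and was 139 at 30 h, 105 at 48 h and 139 at 72 h. Its signal was thus high from 4 h to 18 h and near the untreated level at 30 h, 48 h and 72 h.

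The methionine cycle enzymes Gnmt and Bhmt fell together. Gnmt (1387672_at), glycine N-methyltransferase, had signals of 611, 407 and 619 at 18 h against 127, 119 and 104 at 30 h, and 101 to 144 in untreated kidney. Its difference was -2.13 ± 0.43, or 4.39-fold (adjusted p = 0.0191). Without single libraries the adjusted p of Gnmt was 0.0783 (18h-1), 0.143 (18h-3), 0.0642, 0.0525 and 0.0789 (30h-1, 30h-2 and 30h-3). Bhmt (1387665_at), betaine-homocysteine methyltransferase, had signals of 401, 187 and 452 at 18 h against 102, 84.3 and 58.1 at 30 h, and 70.8 to 102 in untreated kidney. Its difference was -1.93 ± 0.38, or 3.81-fold (adjusted p = 0.0158), with adjusted p = 0.0832 without 18h-1, 0.157 without 18h-3 and 0.0865 without 30h-3. For both genes 18 h held the highest mean of the 17 times, and the libraries of 18 h and 30 h did not overlap. Gnmt stood at 314 at 4 h and 529 at 12 h, whereas Bhmt was 67.8 at 4 h and 190 at 12 h before its 324 at 18 h. Ahcy (1367798_at), the enzyme between them, had signals of 1145, 851 and 1148 against 457, 575 and 442 without overlap, and its difference of -1.08 ± 0.27 did not pass (adjusted p = 0.101).

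The list of amino acid, methyl and polyamine metabolism held 62 tested probe sets (54 of its 69 genes). Of these, 3 fell (Gnmt, Bhmt, Glud1) and 0 rose, the median difference was -0.11 against 0.002 over all probe sets, and the libraries did not overlap for 16 lower (25.8%) and 4 higher (6.45%), beside 4.82% and 5.32% over all probe sets. Glud1 (1370200_at), glutamate dehydrogenase, which releases ammonia from glutamate, had signals of 1241, 1088 and 1524 at 18 h and 719, 766 and 810 at 30 h. Its difference was -0.73 ± 0.17 (adjusted p = 0.0474), and a further Glud1 probe set (1387878_at) gave -0.70 ± 0.18 (adjusted p = 0.103). The Glud1 call was lost without any 1 of the 6 libraries, with adjusted p between 0.0562 (18h-2) and 0.344 (18h-3). Prodh (1372920_at), which starts proline breakdown, had signals of 205, 195 and 304 against 50.2, 54.8 and 88.3, a difference of -1.76 ± 0.45 (adjusted p = 0.103). Psat1 of serine synthesis (1372665_at) stood at 1538, 1392 and 1635 against 828, 677 and 1150, and Arg2 (1368672_at), mitochondrial arginase, at 210, 252 and 237 against 161, 142 and 123 (adjusted p = 0.171 and 0.226). Glul (1367632_at), which uses ammonia to make glutamine, lay the other way, at 1279, 1401 and 1362 against 2040, 1761 and 2085 (0.54 ± 0.15, adjusted p = 0.134). In this list the members that passed were thus all lower, and those that did not pass lay on either side. The gluconeogenesis and ammoniagenesis list, which shares Glud1, had 1 member lower and 0 higher of 19 probe sets, with a median of -0.09. In it the libraries did not overlap for 4 lower (21.1%) and 1 higher (5.26%). Slc38a3 (1370824_at), a glutamine transporter of that list, had signals of 271, 190 and 224 against 98.0, 114 and 121 (-0.99 ± 0.35, adjusted p = 0.452).

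Adh1c (1368021_at), an alcohol dehydrogenase that is in none of the gene lists, had signals of 3115, 2305 and 3265 at 18 h and 628, 761 and 1083 at 30 h, beside 712 to 1132 in untreated kidney. The difference was -1.82 ± 0.40, or 3.54-fold (adjusted p = 0.0337), and 30 h was the lowest of the 17 times. The adjusted p was 0.124, 0.0599 and 0.189 without 18h-1, 18h-2 and 18h-3, and 0.277 and 0.103 without 30h-1 and 30h-2. Among 23 probe sets of conjugation enzymes 1 fell (Sult1a1), 0 rose, and the median was -0.22. Over all tested probe sets 0.137% fell and 0.0525% rose. In this list the libraries did not overlap for 5 lower (21.7%) and 1 higher (4.35%), beside 4.82% and 5.32% over all probe sets. The glutathione transferases Gstm2 (1370952_at; 848, 370 and 447 against 260, 225 and 121; -1.40 ± 0.38, adjusted p = 0.131) and Gstm1 (1386985_at; 267, 156 and 180 against 96.4, 38.7 and 23.1; -1.95 ± 0.62, adjusted p = 0.295) did not overlap between the times but did not pass. Members of this family are close in sequence, so probe sets for them may share signal. Nat8 (1387336_at), an acetyltransferase of cysteine conjugates, lay the other way at 847, 831 and 1010 against 1872, 1218 and 1813 (adjusted p = 0.913). In the phase I list 0 of 31 probe sets passed, the median was -0.07, and 5 were wholly lower (16.1%) and 1 wholly higher (3.23%). Its largest differences without overlap were -0.75 for Cyp2e1 (1367871_at; 2848, 2428 and 2570 against 1874, 1325 and 1482; adjusted p = 0.452) and 0.74 for Por (1387109_at), the electron donor of the microsomal cytochromes P450, at 210, 183 and 237 against 351, 330 and 383 (adjusted p = 0.404).

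**Figure D2:**
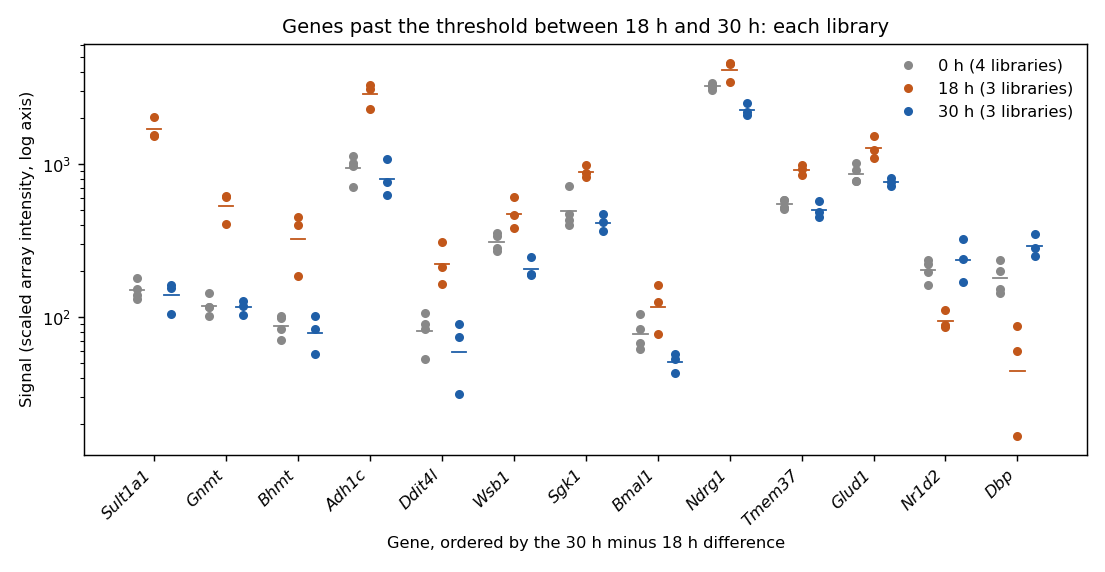
Signals (scaled array intensity, log axis) of the 13 named genes past the threshold in each library at 0 h (grey, 4), 18 h (orange, 3) and 30 h (blue, 3), with the geometric mean as a bar. The 18 h and 30 h points do not overlap for any of these genes, and for Sult1a1, Gnmt, Bhmt and Adh1c the 30 h points lie among or beside the untreated ones.

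Ddit4l and Sgk1 carry signals of growth factor and hormone pathways. Ddit4l (1368013_at), an inhibitor of the growth kinase complex mTORC1, had signals of 309, 165 and 214 at 18 h and 74.6, 31.4 and 90.6 at 30 h, beside 53.6 to 106 in untreated kidney. It fell by 1.75 ± 0.27, or 3.37-fold (adjusted p = 0.000402), and leaving out any 1 library kept the call (adjusted p up to 0.0175). Its course was late and narrow: from a mean of 48.0 at 4 h it went to 81.0 at 8 h, reached 134 at 12 h and 222 at 18 h, and had dropped back to 60.4 by 30 h. Sgk1 (1367802_at), a kinase induced by glucocorticoids and aldosterone that raises sodium uptake, had signals of 872, 827 and 989 at 18 h and 416, 472 and 364 at 30 h, against 403 to 720.5 in untreated kidney. Its difference was -1.09 ± 0.24 (adjusted p = 0.0326), and the call was lost without any 1 library (adjusted p from 0.0523 without 30h-2 to 0.189 without 18h-3). Unlike Ddit4l, Sgk1 was highest early, at 3444 at 5 h, and had come down to 1200 by 12 h. At 18 h its level was thus on the way down, and 30 h was the lowest of the 17 times. Of 38 probe sets for sodium and potassium handling Sgk1 was the only 1 past the threshold, and the median was 0.03. Among them the libraries did not overlap for 2 lower (5.26%) and 3 higher (7.89%), beside 4.82% and 5.32% over all probe sets. Wnk1 (1372791_at), a kinase that regulates salt transport, had signals of 873, 791 and 750 against 1128, 1858 and 1185 (0.75 ± 0.27, adjusted p = 0.451).

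The list of glucocorticoid-induced genes had 35 tested probe sets, of which 2 fell (Sult1a1 and Sgk1) and 0 rose, with a median of -0.16. The libraries did not overlap for 5 lower (14.3%) and 3 higher (8.57%) members, beside 4.82% and 5.32% over all probe sets. Slc25a25 (1371754_at), a mitochondrial ATP-magnesium carrier, had signals of 198, 149 and 121 against 45.5, 39.6 and 29.6 (-1.82 ± 0.64, adjusted p = 0.439). Tsc22d3 (1367771_at), which encodes the glucocorticoid-induced leucine zipper GILZ, lay the other way at 220, 186 and 156 against 349, 275 and 288 (0.68 ± 0.21, adjusted p = 0.270), and 18 h was its lowest mean of all times. Members of this list thus lay on both sides of 0. The list was chosen with earlier results of these data known, so its calls and shares are no independent support.

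The remaining lower genes have different roles. Ndrg1 (1371360_at), a stress-responsive protein that SGK1 phosphorylates, had signals of 3425, 4594 and 4504 at 18 h and 2201, 2094 and 2500 at 30 h. The untreated libraries lay between them, from 3045 to 3393. Its difference was -0.87 ± 0.16 (adjusted p = 0.00589), with adjusted p = 0.0581 without 18h-2 and 0.0710 without 18h-3. Tmem37 (1388103_at), a membrane protein related to calcium channel gamma subunits, had signals of 985.5, 927 and 850 at 18 h and 450, 577 and 490 at 30 h (-0.86 ± 0.16, adjusted p = 0.00589, or 0.0781 without 30h-1). Its untreated range was 507 to 587, and 18 h was its highest mean. Wsb1 (1374204_at), a substrate adaptor of a ubiquitin ligase, had signals of 609, 381 and 465 at 18 h and 188, 190 and 248 at 30 h (-1.17 ± 0.27, adjusted p = 0.0474). It was highest at 18 h and lowest at 30 h of all 17 times, and its call was lost without any 1 library (adjusted p from 0.0581 without 18h-2 to 0.282 without 18h-1). Of the lower probe sets without a single gene symbol, 1372911_at stood out by its course: from 204 at 0 h the mean signal dipped to 57.3 at 4 h, then climbed to 508 at 12 h and 716 at 18 h and was back at 176 by 30 h. Its difference was -1.98 ± 0.32 (adjusted p = 0.000849), and the call held in all 17 alternatives. The other, 1367767_at, gave -0.94 ± 0.21 (adjusted p = 0.0399, and 0.103 to 0.277 without any 1 library other than 30h-3).

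**Figure D3:**
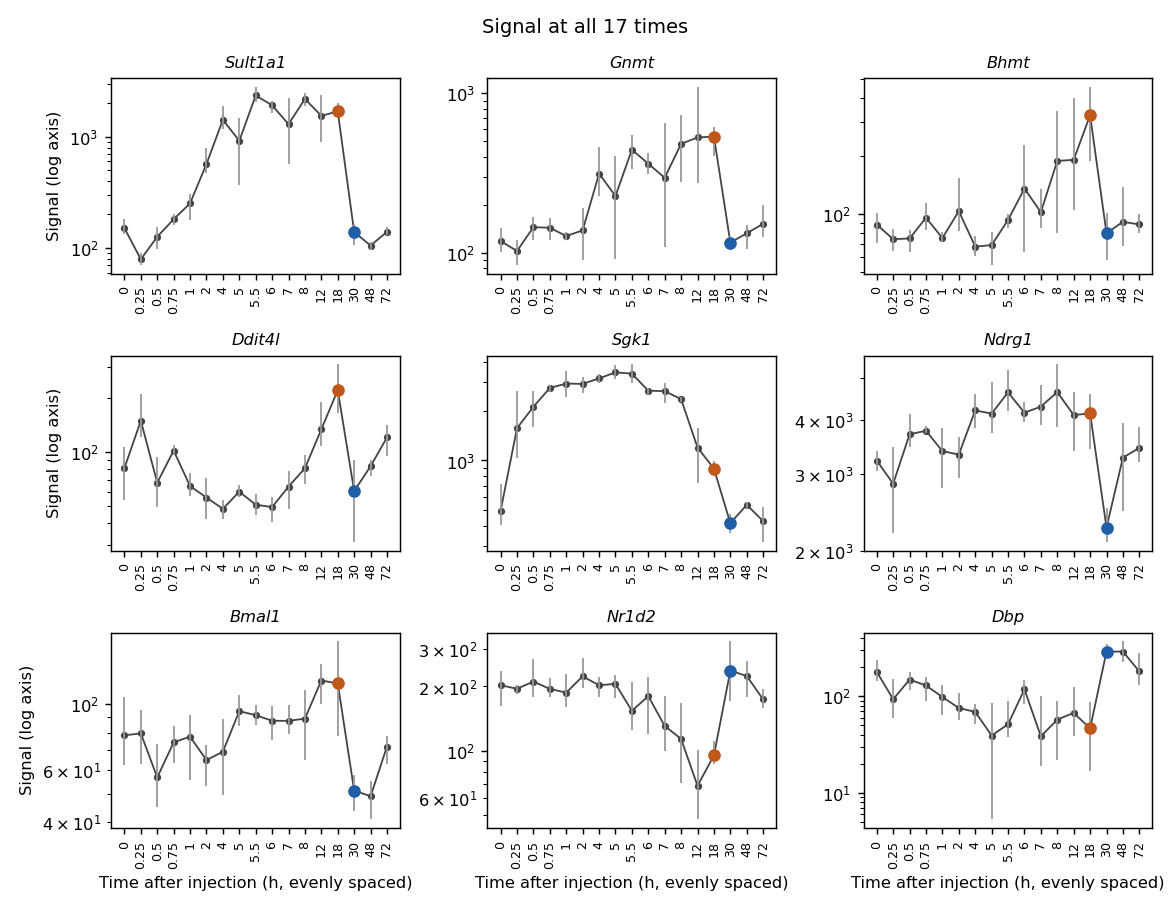
Mean signal (log axis, geometric mean) of 9 named genes at each of the 17 times, with times evenly spaced on the x axis and vertical lines from the lowest to the highest library (4 libraries at 0 h, 3 at each other time). The 18 h point is orange and the 30 h point blue; Sgk1 has its highest mean at 5 h, Sult1a1 at 5.5 h, and Gnmt, Bhmt and Ddit4l at 18 h, while Bmal1 lies opposite to Nr1d2 and Dbp.

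The clock genes moved in both directions. The promoters of those past the threshold are shown as the 250 bases before the start in RefSeq (build GRCr8). They are written 5′ to 3′ on the gene's strand, and 1 of them holds a searched motif. Capitals mark the sequence TAGGTCA, a motif bound by Nr1d1, Nr1d2 and the ROR receptors.
Bmal1 (chr1:176766078-176766327, plus strand): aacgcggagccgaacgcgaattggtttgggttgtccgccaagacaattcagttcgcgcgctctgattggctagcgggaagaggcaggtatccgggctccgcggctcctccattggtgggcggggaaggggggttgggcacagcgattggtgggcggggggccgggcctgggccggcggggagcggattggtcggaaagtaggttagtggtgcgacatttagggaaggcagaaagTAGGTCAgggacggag
Nr1d2 (chr15:9954784-9955033, plus strand): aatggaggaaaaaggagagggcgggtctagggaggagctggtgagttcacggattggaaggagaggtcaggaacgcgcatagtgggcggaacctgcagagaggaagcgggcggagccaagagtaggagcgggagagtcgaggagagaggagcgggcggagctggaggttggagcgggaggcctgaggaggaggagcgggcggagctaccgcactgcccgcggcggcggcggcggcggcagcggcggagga
Dbp (chr1:105312006-105312255, plus strand): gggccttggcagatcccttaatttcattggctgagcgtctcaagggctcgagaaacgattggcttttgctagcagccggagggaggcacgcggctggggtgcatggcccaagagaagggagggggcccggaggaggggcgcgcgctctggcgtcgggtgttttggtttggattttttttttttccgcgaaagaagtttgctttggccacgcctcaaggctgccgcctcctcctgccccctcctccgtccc
Searched on both strands were the E-box CACGTG, the D-box TTATGTAA, the receptor motif TAGGTCA or TGGGTCA and the cAMP element TGACGTCA, which do not overlap each other. Of the 8 clock-list genes chosen by smallest p, 4 in each direction, 6 had an entry (Nr1d2, Cry2, Dbp, Usp2, Bmal1 and Clock, the latter with 2 starts), and Ppard and Csnk1d had none. The single match was the receptor motif of Bmal1, from 16 to 10 bases before the start. Over all 33469 promoters the receptor motif occurred in 5.62%, the E-box in 5.59%, the D-box in 0.828% and the cAMP element in 1.59%. A match describes letters and is no measure of binding, and its part in the results was not tested.

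Bmal1 (1370510_a_at), the activator of the loop, had signals of 77.7, 162 and 126 at 18 h and 57.6, 53.3 and 43.5 at 30 h. The difference was -1.08 ± 0.22, or 2.12-fold (adjusted p = 0.0210). The untreated libraries, from 62.1 to 105, overlapped those of 18 h but not those of 30 h. The mean of Bmal1 was highest at 12 h (120) and 18 h (117) and lowest at 48 h (49.0) and 30 h (51.2). The call was lost without 18h-2 (adjusted p = 0.292) or 18h-3 (0.152) and without 30h-1 (0.0632), 30h-2 (0.0525) or 30h-3 (0.108). Clock (1390199_at), its partner, had signals of 162, 144 and 140 against 85.5, 102 and 115 (-0.53 ± 0.17, adjusted p = 0.335), and its other probe set (1389456_at) gave -0.20 ± 0.20 with overlap.

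Nr1d2 (1370541_at), a repressor of Bmal1, had signals of 111, 89.2 and 86.9 at 18 h and 171, 324 and 239 at 30 h. It was higher by 1.25 ± 0.26, or 2.38-fold (adjusted p = 0.0198). The untreated range was 163 to 237, above every 18 h library. Its other probe set (1390430_at) gave 1.14 ± 0.27 (adjusted p = 0.0609), also without overlap. The mean of the first fell to 68.7 at 12 h and 95.3 at 18 h and was highest at 30 h, at 237. The Nr1d2 call was lost without 18h-2 (adjusted p = 0.101) or 18h-3 (0.151) and without 30h-2 (0.140) or 30h-3 (0.0659). Its relative Nr1d1 (1370816_at) had overlapping signals of 74.7, 53.5 and 64.3 against 61.0, 81.2 and 78.9 (0.18 ± 0.28, adjusted p = 1.00).

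Dbp (1387874_at), a clock output factor that binds D-boxes, had signals of 87.6, 16.8 and 60.6 at 18 h and 251, 349 and 281 at 30 h, beside 143 to 236 in untreated kidney. The difference was 2.46 ± 0.54, or 5.51-fold (adjusted p = 0.0337), and the lowest 18 h library weighed on it: without 18h-2 the difference was 1.89 (adjusted p = 0.411). The call was also lost without 18h-3 (0.103) and without 30h-1, 30h-2 and 30h-3 (0.105, 0.120 and 0.0865). Hlf (1374709_at), of the same family, had signals of 61.2, 116 and 85.1 against 188, 229 and 260 (1.32 ± 0.40, adjusted p = 0.262), and Tef (1369919_at), the family's other member, overlapped at 22.9, 54.4 and 39.6 against 51.7, 58.0 and 47.0. Usp2 (1387703_a_at), a deubiquitinase under clock control, stood at 52.1, 57.5 and 66.0 against 273, 306 and 167 (1.92 ± 0.45, adjusted p = 0.0555), and its other probe set (1375549_at) gave 1.59 ± 0.56. The repressors Cry2 (1372548_at; 125, 76.0 and 68.1 against 185, 151 and 140; adjusted p = 0.0619) and Per2 (1368303_at; 121, 149 and 159 against 263, 282 and 245; adjusted p = 0.279) were without overlap, and Per1 (1374855_at) overlapped at 21.7, 14.5 and 12.9 against 14.7, 26.5 and 45.5. Nfil3 (1368488_at), a repressor of D-box genes, lay lower with overlap, at 63.0, 109 and 56.8 against 57.0, 26.3 and 20.03. Of 16 core clock probe sets 1 rose and 1 fell, the median was 0.15, and 5 were wholly higher (31.2%) and 3 wholly lower (18.8%). Of 19 clock output probe sets 1 rose and 0 fell, the median was 0.29, and 7 were wholly higher (36.8%) and 1 wholly lower (5.26%). Over all probe sets these shares were 5.32% and 4.82%. The 7 wholly higher clock output probe sets include those of Tspan4, Tsc22d3 and Por. The latter are also given above with the glucocorticoid-induced and phase I lists. The clock genes without a call thus lay on both sides of 0 and are given as values.

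The other 3 probe sets higher at 30 h have no single gene symbol. Their differences were 0.75 ± 0.16 for 1369936_at (621, 654 and 821 against 1101, 1198 and 1216; adjusted p = 0.0210), 0.71 ± 0.15 for 1387772_at (501, 555 and 614 against 872, 764 and 1131; adjusted p = 0.0257) and 1.59 ± 0.36 for 1389408_at (41.1, 19.1 and 15.3 against 107, 63.4 and 91.5; adjusted p = 0.0474). Each had its lowest mean of the 17 times at 18 h, and each call was lost without any 1 library other than 18h-3 for 1369936_at (adjusted p 0.0642 to 0.135), 30h-2 for 1387772_at (0.0611 to 0.210) and 18h-1 for 1389408_at (0.0525 to 0.304). The largest non-overlapping increases among genes that did not pass were, besides Usp2, Hlf and the further Nr1d2 probe set, those of RT1-Bb, an MHC class II chain (1371065_at; 218, 45.6 and 36 against 302, 332 and 266; 1.93 ± 0.90, adjusted p = 0.804), Rgn, regucalcin (1368627_at; 132, 159 and 242 against 397, 417 and 625; 1.41 ± 0.40, adjusted p = 0.186), Hbb, a globin chain (1367553_x_at; 890, 527 and 709 against 1250, 1444 and 2624; 1.27 ± 0.54), Fads1, a fatty acid desaturase (1.18 ± 0.38), Coro1a, a leukocyte actin regulator (1.13 ± 0.44), Sectm1b (1.09 ± 0.61) and Tpm3, a tropomyosin (1.07 ± 0.55). A further RT1-Bb probe set (1371033_at) lay the other way with overlap, at -0.58 ± 0.87, and the other Tpm3 probe sets overlapped.

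**Figure D4:**
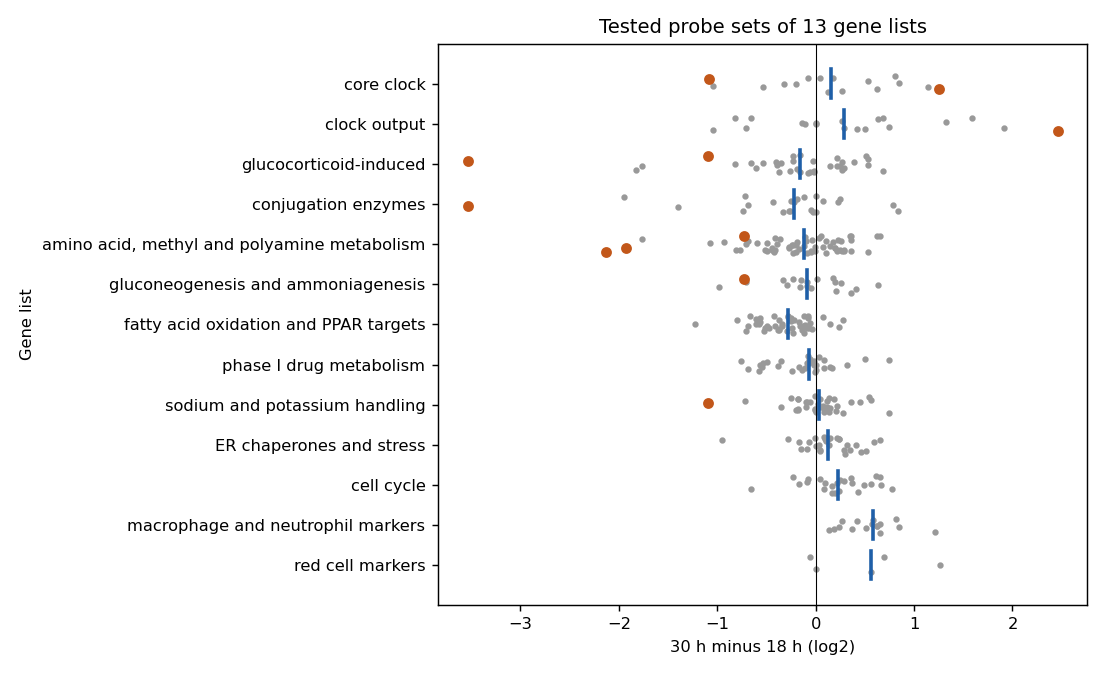
Each point is a tested probe set of 1 of 13 gene lists, with its 30 h minus 18 h difference on the x axis (log2) and points spread vertically for legibility; orange points passed the threshold and blue bars are list medians. Sult1a1 at -3.54 appears in both the glucocorticoid-induced and the conjugation list, and the medians run from -0.28 (fatty acid oxidation) to 0.58 (macrophage and neutrophil markers).

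The enzymes of fatty acid oxidation lay lower without a single call. Of 47 probe sets (42 of 54 genes in the list of fatty acid oxidation and PPAR targets) 0 passed in either direction, the median was -0.28, 43 were negative, and the libraries did not overlap for 13 lower (27.7%) and 1 higher (2.13%), beside 4.82% and 5.32% over all probe sets. The smallest adjusted p was 0.171, for Eci2 (1388908_at), an enoyl-CoA isomerase, with signals of 509, 553 and 557 against 276, 298 and 425 (-0.71 ± 0.20). Its mitochondrial relative Eci1 (1367659_s_at) had signals of 1662, 1116 and 1277 against 570.02, 412 and 767 (-1.23 ± 0.43). Plin2 (1390383_at), the coat protein of lipid droplets, stood at 848, 628 and 671 against 383, 425 and 405, and Cyp4a1 (1368934_at), a fatty acid hydroxylase, at 1084, 761 and 825 against 588, 595 and 593. Cpt1a (1367836_at), the entry step of fatty acids into mitochondria, had 382, 576 and 320 against 255, 308 and 303. For each of these genes every 30 h library was below every 18 h library, while no adjusted p reached the threshold.

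The 18 h and 30 h levels were each set against untreated kidney. Against 0 h, 18 h had 12 higher probe sets (0.126%) and 6 lower ones (0.063%); 418 had an unadjusted p under 0.05. Those higher were Sult1a1, Gnmt, Bhmt, Ddit4l, Tmem37, Ahcy, Arg2, Pigr, Eif4ebp3, Enpp5, Apoh and 1372911_at, and those lower were Rgn, Kmo, Fhit, Aadac, Ptprd and 1389408_at. At 30 h no probe set passed against 0 h by limma in either direction (0.0% of 9520), while an unadjusted p under 0.05 was reached by 186 upward and 198 downward. These comparisons share libraries with the one between 18 h and 30 h and with each other, so their values are set side by side only. Sult1a1 was 3.43 ± 0.34 above 0 h at 18 h and -0.11 ± 0.34 from it at 30 h; Gnmt was at 2.11 ± 0.40 and -0.03 ± 0.40, Bhmt at 1.79 ± 0.36 and -0.14 ± 0.36, Ddit4l at 1.37 ± 0.25 and -0.38 ± 0.25. Bmal1 (0.54 ± 0.21 and -0.55 ± 0.21), Wsb1 (0.60 ± 0.25 and -0.57 ± 0.25) and Ndrg1 (0.36 ± 0.15 and -0.51 ± 0.15) instead lay on opposite sides of 0 h at nearly equal distance, and none of these 6 values passed. Nr1d2 was at -1.03 ± 0.24 (adjusted p = 0.0502) and 0.22 ± 0.24, and Dbp at -1.79 ± 0.51 and 0.67 ± 0.51. Apoh (1389350_at), a plasma phospholipid-binding protein, was 1.75 ± 0.32 above 0 h at 18 h and did not pass between 18 h and 30 h (-1.19 ± 0.34, adjusted p = 0.191). Without single libraries the 18 h count against 0 h was 3 to 9 higher (3 without 18h-1, 5 without 18h-3, 7 without 18h-2 or 0h-3) and 1 to 6 lower (1 without 18h-2, 2 without 0h-2 or 0h-3, 3 without 0h-1 or 0h-4). The 30 h count was 1 lower without 30h-2 and 2 lower without 30h-3.

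The named genes were then read in a comparison without 18 h or 30 h libraries. It sets the mean of 48 h and 72 h against 12 h, later and earlier times that lie on either side of the same gap. These libraries entered the same fit, so both comparisons share its estimate of each gene's spread. If all kidneys had the same hour of injection, both comparisons set opposite hours of the day against each other. Hour of day and elapsed time thus cannot be told apart here either. Here 9 probe sets passed upward (0.0945%) and 13 downward (0.137%), and 627 had an unadjusted p under 0.05. Of the 11 lower genes 5 passed there in the same direction (Sult1a1, Gnmt, Bmal1, Sgk1 and Glud1), 11 had a negative difference, and their median was -0.92; of the 2 higher genes Nr1d2 passed, both were positive, and their median was 1.54. Sult1a1 was at 1714, 904 and 2368 at 12 h and between 95.8 and 154 in the 6 later libraries (-3.59 ± 0.31, adjusted p = 2.62e-10). Gnmt was at 492, 274.5 and 1091 against 106 to 200.2 (-1.84 ± 0.37, adjusted p = 0.00886). Sgk1 stood at 1587, 1487 and 732 against 319 to 560.0 (-1.31 ± 0.21, adjusted p = 0.000207). Bmal1 was at 100, 136 and 126 against 41.1 to 77.8 (-0.92 ± 0.19, adjusted p = 0.0145), and Nr1d2 at 48.1, 101 and 65.7 against 159 to 262 (1.42 ± 0.22, adjusted p = 0.000207). Glud1 stood at 1184, 1156 and 1560 against 709.5 to 909 (-0.63 ± 0.14, adjusted p = 0.0418). For each of these 6 genes the later libraries did not overlap those of 12 h. Bhmt (-1.03 ± 0.33), Adh1c (-1.07 ± 0.35), Ddit4l (-0.39 ± 0.23), Wsb1 (-0.35 ± 0.23), Ndrg1 (-0.29 ± 0.14), Tmem37 (-0.47 ± 0.14) and Dbp (1.66 ± 0.47) did not pass there.

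Several genes that had missed the threshold between 18 h and 30 h passed between 12 h and the later times: Prodh (-2.59 ± 0.39, adjusted p = 0.000150), Ahcy (-1.23 ± 0.24, adjusted p = 0.00577), Arg2 (-1.09 ± 0.18), Eif4ebp3, a translation repressor (-1.48 ± 0.27), Gstm2 (-1.65 ± 0.32) and Ccn2, a matricellular growth factor (1367631_at; -1.43 ± 0.24, adjusted p = 0.000786), which had been at 601, 445 and 537 at 18 h and 271, 334 and 264 at 30 h. Nr1d1 was 1.89 ± 0.24 higher at the later times (adjusted p = 5.09e-06), while it was 0.18 ± 0.28 between 18 h and 30 h; the difference between these 2 values was not tested. The number higher was 4 and the number lower 7 without 12h-1, and the number lower was 8 without 12h-3.

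**Figure D5:**
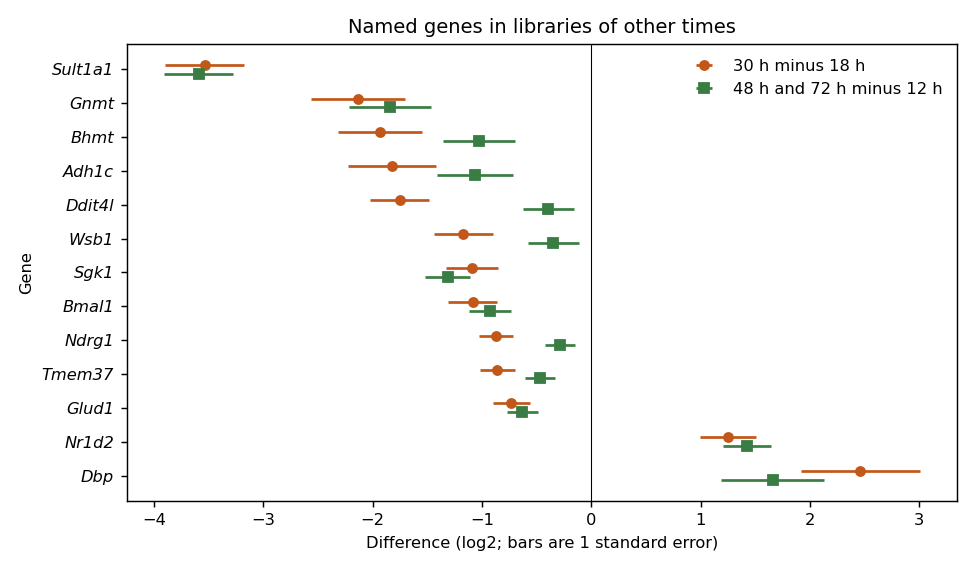
Differences on the x axis (log2, bars are 1 standard error) of the 13 named genes on the y axis, for 30 h minus 18 h (orange circles, 3 libraries a time) and for 48 h and 72 h minus 12 h (green squares, 6 and 3 libraries). All 11 lower genes are below 0 and both higher genes above 0 in both comparisons. These compare no library in common but share the spread estimate of 1 fit. Sult1a1 lies at -3.54 and -3.59, while Ddit4l lies at -1.75 and -0.39.

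Markers of kidney segments and of other cells were read beside these results. The proximal tubule markers had a summed signal of 43293 to 49288 at 18 h and 45518 to 49169 at 30 h, and 0 of 24 probe sets passed (13 positive, 11 negative). Of these, 6 were wholly higher (25%) and 2 wholly lower (8.33%), beside 5.32% and 4.82% over all probe sets. The sums of 2 other segments did not overlap between the times: thick limb and distal tubule markers were at 7940 to 8962 at 18 h and 9351 to 12764 at 30 h (7 of 9 probe sets positive, median 0.25), and podocyte markers at 2748 to 2983 and 2401 to 2566 (5 of 11 positive, median -0.02). Neither list had a member past the threshold, and their part in the results was not tested. The brightest podocyte probe set, Actn4, stood at 963 to 1109 at 18 h and 417 to 764 at 30 h (-0.73), the largest decrease of its list. The largest increase there was 0.39 (Nes), and the sum without Actn4 was not taken. Hepatocyte markers are given because Gnmt, Bhmt, Adh1c and Sult1a1 are abundant in liver, and their part in the results was not tested. The summed signal of the hepatocyte markers was 634 to 813 at 18 h and 673 to 921 at 30 h, and 0 of 5 tested probe sets passed. The albumin probe sets were at 19.1 to 50.7 at 18 h and 18.1 to 101 at 30 h, too dim on average to be tested. Adrenal markers summed to 282 to 365 at 18 h and 218 to 302 at 30 h, with 1 of 11 probe sets tested and Star, which brings cholesterol into adrenal mitochondria, at 3.61 to 15.8 and 6.52 to 12.7, and adipose markers to 340 to 413 and 247 to 280, with 1 of 6 tested. Macrophage and neutrophil markers lay higher at 30 h in 16 of 16 tested probe sets, with a median of 0.58 and no call; their sums were 2986 to 3880 and 3539 to 5595, and their part in the results was not tested. Within that list C1qb (1370215_at), a complement component of macrophages, had 53.8, 96.4 and 96.1 against 229.5, 109 and 124 (0.82 ± 0.28, adjusted p = 0.418). Red cell markers summed to 1170 to 1653 and 1884 to 3651, with a median of 0.56 and 0 of 5 probe sets past the threshold, and the sums did not overlap between the times; Hbb is 1 of these markers, and their part in the other results was not tested. After the authors' scaling the median intensity of the 6 arrays ran from 73.4 to 81.4.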

How the data were processed

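Total RNA of rat kidney was hybridised to Affymetrix arrays. The deposited values are intensities on a linear scale, 1 per probe set, which the authors scaled per array: the mean of each array without its lowest and highest 2% is 150.03 to 150.04 in the deposited intensities. The sources used here do not give the algorithm behind them. For arrays their number limits the precision, since there is no read depth.

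Of 15923 probe sets 57 controls were left out. Values were taken as log2(intensity + 7.63), the 10th percentile of the table, and probe sets with a mean at or above the 40th percentile (signal 52.3) were tested. Arrays a and b of 5 h replicate 1 were averaged, which left 52 libraries. No pair of columns was identical. All 17 times entered 1 fit in limma 3.58.1 (R 4.3.3; linear model, empirical Bayes, variance trend on), with Benjamini-Hochberg adjustment and a threshold of 0.05. Symbols are those of the platform annotation, brought up to date with RefSeq (GRCr8): 12783 probe sets had 1 symbol, 312 several and 2771 none listed.

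Named genes have 1 symbol, an adjusted p under 0.05 and no overlap between 18 h and 30 h, up to 15 in each direction. Where fewer than 5 passed, the 10 largest non-overlapping differences are given as values. Each list's members with the smallest p are given as values too, and further list members were added after their values were seen. Glul, Por, Wnk1, Cry2, Cpt1a, Slc1a1 and Il33 have further tested probe sets that are not given here. Their values stand for the probe set shown only. The members of the comparison and the gene lists were chosen with earlier results of these data known. The calls and shares of list members are therefore no independent support.

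Same-numbered libraries of 18 h and 30 h deviated together from their group means (r = 0.249, 0.210 and 0.275 across probe sets). For 0 h and 30 h these values were 0.133, -0.118 and 0.149. They were 0.103, -0.025 and 0.022 for 12 h and 48 h, and -0.073, -0.023 and -0.064 for 12 h and 72 h. The titles do not say what the numbers stand for, so whether these samples are paired is not known. The main fit held no term for such a pairing, and its standard errors leave it out. The alternatives were 4 times and 0.25 times the pseudocount, no filter and a 60th percentile filter, quantile normalization and median centring, only the compared times, a replicate block, robust moderation, array weights, leaving out each library, and leaving out arrays of letter b or c. The fit was tested on simulated data. The second array type holds neither 18 h nor 30 h and was not used here.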

Additional observations from a re-analysis of the deposited data

How the results depend on the processing

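No named gene reversed its direction under any alternative. Sult1a1 and 1372911_at kept their call in all 17, and the other 16 probe sets past the threshold lost it under at least 1. Dbp, Bhmt, Ddit4l, Bmal1 and 1389408_at had 16 alternatives, since the 60th percentile filter left them out as too dim. With only the compared times in the fit, the calls of Ddit4l (adjusted p = 0.0966), Dbp (0.0519), Nr1d2 (0.0854), Bhmt (0.0519), Wsb1 (0.0641), Bmal1 (0.236), Ndrg1 (0.0681), Tmem37 (0.0681), Glud1 (0.160), 1367767_at (0.0641), 1369936_at (0.119), 1387772_at (0.233) and 1389408_at (0.165) were lost. With no filter those of Dbp (0.0551), Adh1c (0.0551), Wsb1 (0.0751), Sgk1 (0.0547), Glud1 (0.0727), 1367767_at (0.0565) and 1389408_at (0.0762) were lost, and with median centring those of Wsb1 (0.0551), Glud1 (0.119), 1367767_at (0.119), 1369936_at (0.0551) and 1387772_at (0.0922). Wsb1 was also lost with 4 times (0.0515) and 0.25 times (0.0502) the pseudocount, Dbp with 0.25 times (0.0563) and 1389408_at with 4 times (0.0795). Without letters b or c Dbp (0.0657), Adh1c (0.0657), Wsb1 (0.0777), Bmal1 (0.0539), Glud1 (0.0657), 1367767_at (0.0777) and 1389408_at (0.0777) were lost. Between 18 h and 30 h (5 higher, 13 lower) the number higher was 3 with the 60th percentile filter, 9 with quantile normalization, 3 with only the compared times, 19 with array weights and 3 without letters b or c, and 0 to 9 without single libraries. The number lower was 8 with no filter, 8 with only the compared times, 31 with array weights and 8 without letters b or c, and 4 to 10 without single libraries. With the replicate block it was 6 higher and 16 lower, which include all 5 and all 13, so the block changed no call of a named gene. The block holds 1 effect per replicate number over all 17 times, so a pairing of 18 h with 30 h alone was not fitted. Against 0 h, 18 h gave 26 higher and 24 lower with array weights, 2 lower with no filter and 2 lower without letters b or c. Without single libraries it gave 3 to 9 higher and 1 to 6 lower, and with the replicate block 8 higher and 3 lower. Same-numbered libraries of 0 h and 18 h deviated together only for replicate 3 (r = 0.244, beside -0.037 and -0.026 for replicates 1 and 2). At 30 h against 0 h the count lower was 0 to 2 without single libraries. For 48 h and 72 h against 12 h (9 higher, 13 lower) the number higher was 5 with median centring, 4 with only the compared times, 34 with array weights and 3 without letters b or c; the number lower was 7 with only the compared times and 29 with array weights. Without single libraries these were 4 to 10 higher and 7 to 14 lower. The cause of these shifts was not tested, except that no filter adds dim probe sets to the adjustment and that leaving out arrays or times leaves fewer samples. Signals near or under the filter level of 52.3, such as those of Per1, Tef and Nfil3, limit what could be seen in dim genes. Some libraries of the called Bmal1, Dbp, Ddit4l and 1389408_at also lay under that level.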

Other observations

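Genes that fold proteins in the endoplasmic reticulum lay mostly higher at 30 h than at 18 h without a call. Of 29 probe sets 0 passed, 21 were positive, the median was 0.12, and 7 were wholly higher (24.1%) and 2 wholly lower (6.90%), beside 5.32% and 4.82% over all probe sets. Hspa5, the main chaperone of that compartment, had signals of 526, 756 and 840 at 18 h and 1052, 1266 and 875 at 30 h (0.60 ± 0.33, adjusted p = 0.958), and Hsp90b1 584, 751 and 774 against 1246, 829 and 963 (0.51 ± 0.27, adjusted p = 0.922). Heat shock proteins of cytosol and mitochondria gave 0 of 29 with a median of -0.08; Dnajb1, a co-chaperone, stood at 136, 202 and 114 against 82.9, 103 and 89.2 (-0.64 ± 0.22, adjusted p = 0.367), and its other probe set overlapped. Cell cycle genes gave 0 of 24 with a median of 0.23 and 19 positive, led by the replication helicase subunits Mcm5 (0.77 ± 0.22, adjusted p = 0.182) and Mcm2 (0.66 ± 0.21, adjusted p = 0.308).

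Tubule transporters and surface enzymes were given by a few members. Slc1a1, a glutamate transporter, stood at 388, 339 and 359 at 18 h and 509, 567 and 616 at 30 h (0.63 ± 0.15, adjusted p = 0.0555). Anpep, a brush border peptidase, stood at 1201, 1282 and 1457 against 1926, 1826 and 2208 (0.59 ± 0.18, adjusted p = 0.238), while of the same proximal tubule markers, 13 positive and 11 negative with a median of 0.04, the fatty acid transporter Slc27a2 gave -0.46 ± 0.19 (adjusted p = 0.697) and the endocytic receptor Cubn -0.38 ± 0.18 (adjusted p = 0.876) without overlap. Umod, uromodulin of the thick ascending limb, stood at 3033, 2614 and 3285 against 3980, 4628 and 3641 (0.45 ± 0.23, adjusted p = 0.897). Il33, an alarm cytokine, stood at 352, 345 and 422 against 665, 771 and 819 (1.00 ± 0.25, adjusted p = 0.0890). Prdx6, a peroxiredoxin, lay lower at 1432, 1652 and 1661 against 1004, 653 and 1116 (-0.80 ± 0.24, adjusted p = 0.245). Ribosomal proteins (44 probe sets, median 0.02), oxidative phosphorylation (75, median 0.03) and proteasome subunits (44, median 0.0003) lay near 0 and had 0 calls. None of the genes in these paragraphs passed between 18 h and 30 h.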
